A study of Homo sapiens with 6 samples.

Results

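The genes described here handle iron in U937 cells, a human line with features of monocytes that is generally traced to a histiocytic lymphoma. The labels call its cell type acute promyelocytic leukaemia. The genes are TFRC, SLC11A2 and SLC11A1 on the uptake side, SLC40A1 for export, HMOX1 for haem breakdown, FTH1, FTL and NCOA4 for storage and its release, and IREB2 and ACO1 as regulators. These 10 genes were chosen by their symbols from the 58735 genes of the deposited table, with results of the comparison below already known. Their differences between groups are therefore given as a description, with no p-value for any of them. Messenger RNA was sequenced from 3 libraries with the genotype label oeBCL6B and 3 control libraries with the genotype label NC. Per the series design, lentiviral vectors were used to overexpress BCL6B, a zinc finger relative of the repressor BCL6. All 6 libraries carry the same treatment label and the same batch label, and nothing further is said of what the control cells received. The labels do not say that the libraries came from separate cultures, so the spread between them may be technical.

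Iron bound to transferrin enters cells through the transferrin receptor (TFRC), which is taken up into endosomes, where iron is reduced and moved into the cytosol by SLC11A2. Iron not needed at once is stored in ferritin, a shell of heavy (FTH1) and light (FTL) chains, and NCOA4 carries ferritin to lysosomes to free that iron again. The iron regulatory proteins encoded by ACO1 and IREB2 bind hairpins called iron-responsive elements when iron is scarce. A hairpin in the 5′ UTR blocks translation, as in the ferritin mRNAs, while hairpins in the 3′ UTR of TFRC protect its mRNA from decay. Macrophages and their precursors also recycle the iron of haem, which HMOX1 frees.

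Because these hairpins tell the iron-regulated messages apart, they were located first. In GENCODE 29 transcripts (GRCh38), a search was made for an unpaired C, 5 bases, the loop CAGUG followed by A, C or U, and 5 more bases. At least 4 of 5 positions had to pair both above and below the unpaired C, with G-U pairs allowed, and the site had to lie in a UTR. The search found 7 sites in 4 of the 10 genes. The windows of 29 bases are shown 5′ to 3′ so that the shared loop can be seen, and capitals mark the 6 bases of the loop.
TFRC 1: aauuaucggaagCAGUGCcuuccauaauu
TFRC 2: cauuaucgggagCAGUGUcuuccauaaug
TFRC 3: cuguaucggagaCAGUGAucuccauaugu
TFRC 4: aauuaucgggaaCAGUGUuucccauaauu
FTH1: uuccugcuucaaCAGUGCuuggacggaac
FTL: cucuugcuucaaCAGUGUuuggacggaac
SLC40A1: caacuucagcuaCAGUGUuagcuaaguuu

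The 4 TFRC sites lay in the 3′ UTR on the minus strand, at chr3:196050979-196051007, chr3:196050575-196050603, chr3:196050510-196050538 and chr3:196050463-196050491. In the transcript of 5111 bases shown in the map they ran from base 3388 to base 3932, after a coding part that ends at base 2450. The other sites lay in 5′ UTRs, that of FTH1 at chr11:61967574-61967602 (minus strand), that of FTL at chr19:48965335-48965363 (plus strand) and that of SLC40A1 at chr2:189580661-189580689 (minus strand). The FTH1 and FTL windows were identical at 26 of 29 positions, whereas the FTH1 window matched each TFRC window at 9 to 11 positions. Among the 4 TFRC windows, pairs were identical at 18 to 25 positions. Across 19684 protein-coding genes, 0.396% had a site by this rule, with 0.117% in the 5′ UTR and 0.284% in the 3′ UTR. No match was found in SLC11A1, SLC11A2, IREB2, ACO1, NCOA4 or HMOX1, which says only that these letters and pairs were not in their annotated UTRs. SLC11A2 is known to have an isoform with such an element.

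**Figure D1:**
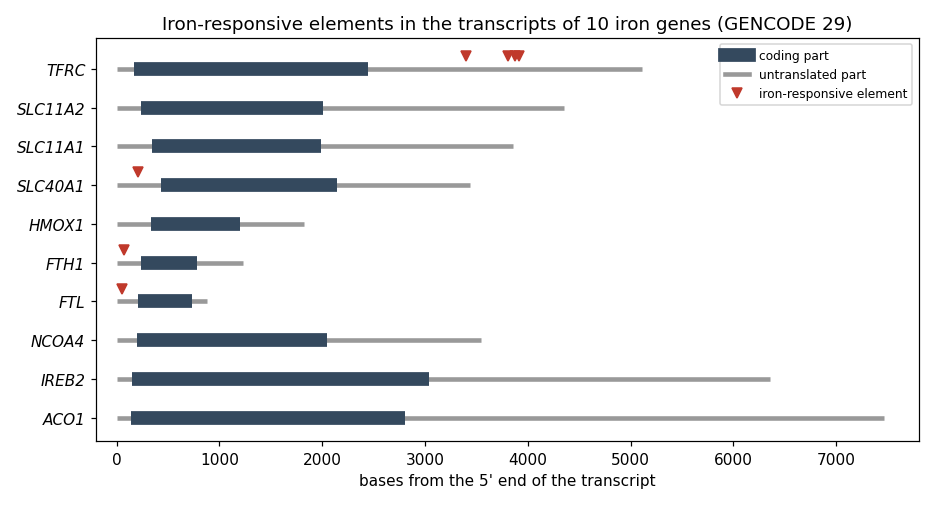
Transcripts of the 10 iron genes, with the distance from the 5′ end in bases on the x axis, the coding part as a thick bar, the untranslated parts as a thin line and each iron-responsive element as a triangle. The 4 elements of TFRC sit after its coding part, and the single elements of FTH1, FTL and SLC40A1 sit before theirs.

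Levels are FPKM, fragments per kilobase of gene model scaled to library depth, as the authors deposited them. The table also allowed the reads behind each value to be worked out, with 17095256 to 18870186 reads in listed genes in oeBCL6B libraries and 16481014 to 17627289 in control libraries. BCL6B itself had 1215, 1229 and 1712 reads in the oeBCL6B libraries and 0 reads in every control library. Markers of the line were present, with 9 of 10 U937 myeloid markers at a testable level, while CD68 was near 0 in all 6 libraries. Groups were compared with limma on log2(FPKM + 1) over the 14662 genes that reached 0.5 FPKM in 3 or more libraries. A gene passed at a Benjamini-Hochberg adjusted p under 0.05. Log2 changes are on this scale, oeBCL6B minus control, and are smaller than the true change where levels are low. By this rule 8.18% of tested genes rose, 10.1% fell and 18.3% changed in either direction, and for 40% the libraries of the groups did not overlap.

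Of the 10 iron genes, 9 were tested. TFRC, FTH1 and HMOX1 rose, NCOA4 fell, and FTL, SLC40A1, SLC11A2, IREB2 and ACO1 did not pass the threshold. SLC11A1 was too low to be tested. The groups did not overlap for 4 of the 9, the same 4 that passed. HMOX1 passed the filter on low values only through its oeBCL6B libraries. Since the genes were chosen on this comparison, nothing is read from these counts. The median log2 change was 0.03 over the 9 tested iron genes and -0.02 over all tested genes. In bulk RNA, fewer cells expressing a gene and less RNA per cell cannot be told apart.

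**Figure D2:**
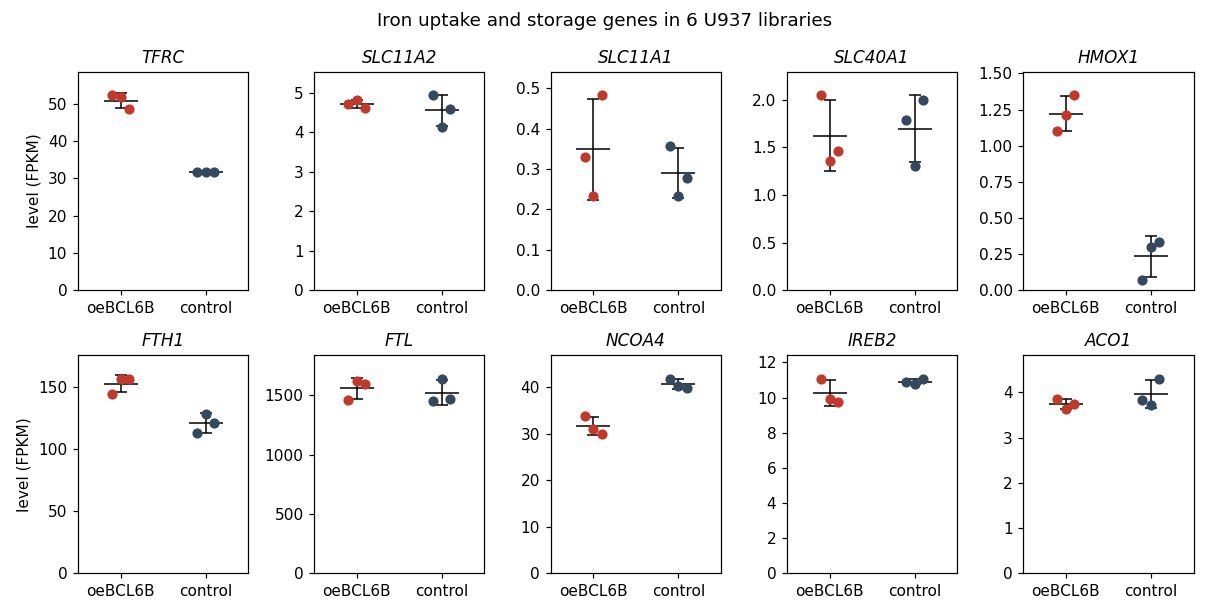
Level of each iron gene in FPKM on the y axis, with 1 point per library, a horizontal line at the group mean and bars of 1 SD, for 3 oeBCL6B and 3 control libraries. The groups are apart for TFRC, HMOX1, FTH1 and NCOA4 and overlap for the other genes.

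Among the uptake genes, TFRC (ENSG00000072274, chromosome 3, 196027183 to 196082189, minus strand) was at 52.3, 51.8 and 48.5 FPKM in oeBCL6B libraries, against 31.7, 31.8 and 31.6 FPKM in control libraries. Every oeBCL6B library lay above every control, and the controls were close together. The means were 50.9 ± 2.07 FPKM in oeBCL6B and 31.7 ± 0.0921 FPKM in control (SD, n = 3 each), a fold of 1.61 (log2 change 0.67, SE 0.0445). The values rest on 7304 to 7765 reads per oeBCL6B library and 4327 to 4590 per control library. The control SD is smaller than the counting error of that many reads, so it is not a measure of precision. The ratio of read rates had a 95% interval of 1.57 to 1.64, which covers counting error only and not the spread between libraries. PCR copies are not independent molecules, so the interval may be too narrow even for counting error. TFRC kept its call under all 16 alternative settings, with log2 changes of 0.65 to 0.70. These settings reuse the libraries on which TFRC was chosen, so no support is drawn from the call.

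The divalent metal transporter SLC11A2 (ENSG00000110911, chromosome 12, 50979401 to 51028566, minus strand) moves iron out of the endosome after the receptor has brought it in. It was at 4.72, 4.82 and 4.62 FPKM in oeBCL6B and 4.93, 4.14 and 4.59 FPKM in control, and the groups overlapped. The means were 4.72 ± 0.0991 FPKM in oeBCL6B and 4.55 ± 0.398 FPKM in control (SD, n = 3 each), with a log2 change of 0.04 and an SE of 0.0689. SLC11A1 (ENSG00000018280, chromosome 2, 218382029 to 218396894, plus strand), the related transporter of phagosomes in macrophages, was at 0.331, 0.232 and 0.483 FPKM in oeBCL6B and 0.357, 0.234 and 0.279 FPKM in control. These levels correspond to 36 to 84 reads per oeBCL6B library and 37 to 57 per control library, and the groups overlapped.

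The exporter and the haem enzyme were both near the bottom of the range in these cells. SLC40A1 (ENSG00000138449, chromosome 2, 189560579 to 189583758, minus strand), the iron exporter ferroportin, was at 2.05, 1.36 and 1.46 FPKM in oeBCL6B and 1.78, 1.31 and 2.00 FPKM in control. The groups overlapped, with a log2 change of -0.04 and an SE of 0.141 from 105 to 167 reads per oeBCL6B library and 103 to 150 per control library. HMOX1 (ENSG00000100292, chromosome 22, 35380361 to 35394214, plus strand), haem oxygenase 1, was at 1.10, 1.21 and 1.35 FPKM in oeBCL6B and 0.0679, 0.297 and 0.335 FPKM in control. Every oeBCL6B library lay above every control. The means were 1.22 ± 0.122 FPKM in oeBCL6B and 0.233 ± 0.145 FPKM in control (SD, n = 3 each), a fold of 5.23. The reads behind them were few, with 50, 52 and 65 in oeBCL6B and 3, 13 and 14 in control. The ratio of read rates was 5.29, with an exact 95% interval of 3.57 to 8.09 for counting error. The log2 change was 0.85 (SE 0.124) with a pseudocount of 1, 1.249 with 0.5 and 2.10 with 0.1, and 2.61 from limma voom on the reads. A filter on a mean of at least 1 FPKM removed HMOX1 from the test. Since HMOX1 entered the test only through the group in which it is high, no support is drawn from its call.

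Ferritin heavy and light chain messages were the most abundant of the 10, and they did not shift alike. FTH1 (ENSG00000167996, chromosome 11, 61959718 to 61967660, minus strand), whose chain oxidises iron for storage, was at 144.5, 156.3 and 156.6 FPKM in oeBCL6B and 112.4, 128.4 and 121.2 FPKM in control. The groups did not overlap, with means of 152 ± 6.89 FPKM in oeBCL6B and 121 ± 7.99 FPKM in control (SD, n = 3 each), a fold of 1.26 (log2 change 0.34, SE 0.0631). FTH1 no longer passed when oeBCL6B replicate 2, control replicate 1 or control replicate 3 was left out, and its log2 change was 0.29 to 0.38 over all alternatives. FTL (ENSG00000087086, chromosome 19, 48965301 to 48966878, plus strand) was at 1459, 1621 and 1598 FPKM in oeBCL6B and 1456, 1642 and 1472 FPKM in control. Here the groups overlapped, with a log2 change of 0.03 and an SE of 0.0777, and with quantile normalization the change was -0.09. Both messages carry a 5′ UTR hairpin, printed above, which acts on translation, and translation was not measured.

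Of the exon bases of FTH1, 1267 of 2030 (62.4%) are also exon of BEST1 on the opposite strand. The use of strand in counting is not given in the sources used here, although the libraries were made strand-specific per the labels' protocols. BEST1 was at 0.548 ± 0.0341 FPKM in oeBCL6B and 0.305 ± 0.0706 FPKM in control (SD, n = 3 each; limma adjusted p = 0.153), far below FTH1. That level does not show how reads in the shared bases were counted, so their effect on FTH1 is not known. The other 9 iron genes share 0 exon bases with any gene. Ferritin genes have processed copies in the genome, but apart from BEST1 no annotated transcript of another gene matched any of the 10 at 98% identity over 200 bases. Copies less alike than this were not sought.

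NCOA4 (ENSG00000266412, chromosome 10, 46005088 to 46030714, minus strand), the receptor that delivers ferritin to lysosomes, was the iron gene that fell. Its levels were 33.8, 31.0 and 30.0 FPKM in oeBCL6B and 41.9, 40.2 and 39.8 FPKM in control, with no overlap. The means were 31.6 ± 1.95 FPKM in oeBCL6B and 40.6 ± 1.10 FPKM in control (SD, n = 3 each), a fold of 0.778 (log2 change -0.35, SE 0.0549). NCOA4 kept its call under all 16 alternatives, with log2 changes of -0.40 to -0.32, from which, as for TFRC, no support is drawn.

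The regulators showed no such separation. IREB2 (ENSG00000136381, chromosome 15, 78437431 to 78501456, plus strand), which encodes IRP2, was at 11.1, 9.91 and 9.73 FPKM in oeBCL6B and 10.9, 10.8 and 11.1 FPKM in control. ACO1 (ENSG00000122729, chromosome 9, 32384603 to 32454769, plus strand), which encodes IRP1, an aconitase when it holds an iron-sulphur cluster, was at 3.86, 3.63 and 3.75 FPKM in oeBCL6B and 3.84, 3.72 and 4.30 FPKM in control. For both genes the groups overlapped, with log2 changes of -0.09 (SE 0.0592) for IREB2 and -0.06 (SE 0.0674) for ACO1. The IREB2 to ACO1 ratio was 2.73 ± 0.137 in oeBCL6B and 2.77 ± 0.170 in control (SD, n = 3 each). These are mRNA levels, and the RNA-binding activity of the proteins, which is set largely after transcription, was not measured.

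**Figure D3:**
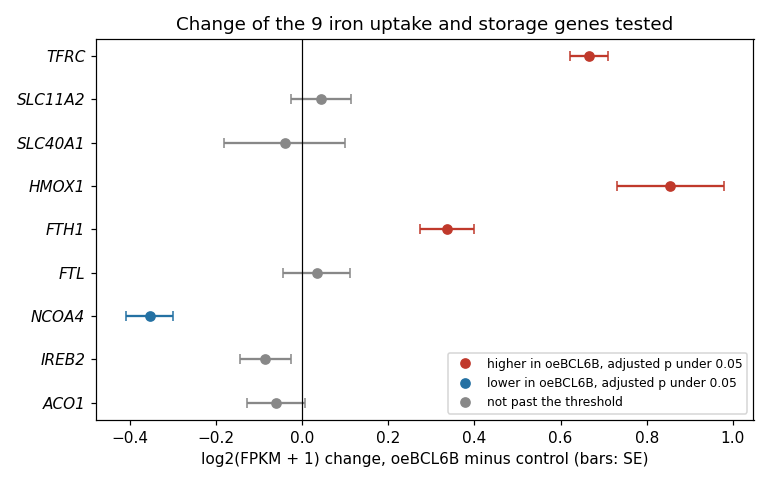
Log2(FPKM + 1) change, oeBCL6B minus control, of the 9 tested iron genes, with bars of 1 SE and colours for genes past the adjusted threshold. HMOX1 (0.85), TFRC (0.67) and FTH1 (0.34) lie to the right, NCOA4 (-0.35) to the left, and the other 5 lie near 0. Since the genes were chosen on this comparison, the colours are a description.

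The order of levels was FTL, FTH1, TFRC, NCOA4, IREB2, SLC11A2, ACO1, SLC40A1, HMOX1 and SLC11A1 in oeBCL6B libraries. In control libraries it was FTL, FTH1, NCOA4, TFRC, IREB2, SLC11A2, ACO1, SLC40A1, SLC11A1 and HMOX1. Neighbours in the oeBCL6B order did not overlap in range, though the lowest SLC40A1 level (1.36 FPKM) was close to the highest HMOX1 level (1.35 FPKM). In control, SLC11A2 overlapped ACO1 and SLC11A1 overlapped HMOX1. This order is per base of the deposited gene models and depends on the length used, since the TFRC model has 7887 bases and its transcript in the map 5111, and those of NCOA4 have 4079 and 3549. Per length of the mapped transcripts, an alternative added after the data were seen, TFRC stood above NCOA4 in both groups, and in oeBCL6B libraries SLC40A1 overlapped HMOX1.

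Ratios taken within each library do not depend on its depth. TFRC to NCOA4 was 1.55, 1.67 and 1.62 in oeBCL6B libraries and 0.756, 0.792 and 0.794 in control libraries. The mean ratio was 2.07 times as high in oeBCL6B as in control. Per mapped transcript the mean ratio was 2.17 in oeBCL6B and 1.05 in control. Which gene was the more abundant thus depends on the length used in control libraries, whereas in oeBCL6B libraries it was TFRC by either length. TFRC to FTH1 was 0.362, 0.332 and 0.310 in oeBCL6B and 0.282, 0.248 and 0.261 in control, 1.27 times as high. FTH1 to NCOA4 was 4.28, 5.05 and 5.22 in oeBCL6B and 2.69, 3.20 and 3.04 in control, 1.63 times as high. FTL to FTH1 was 10.1, 10.4 and 10.2 in oeBCL6B and 12.95, 12.8 and 12.1 in control, 0.809 times as high. The size of each ratio, though not the comparison between groups, depends on the length used. The FTH1 model has 2030 bases and its mapped transcript 1229, while FTL has 878 in both. Per mapped transcript, mean levels of FTL and FTH1 were 1559 and 252 FPKM in oeBCL6B, and 1523.5 and 199 FPKM in control. For all 4 ratios the groups did not overlap, and since the genes were chosen on this comparison the ratios are a description.

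**Figure D4:**
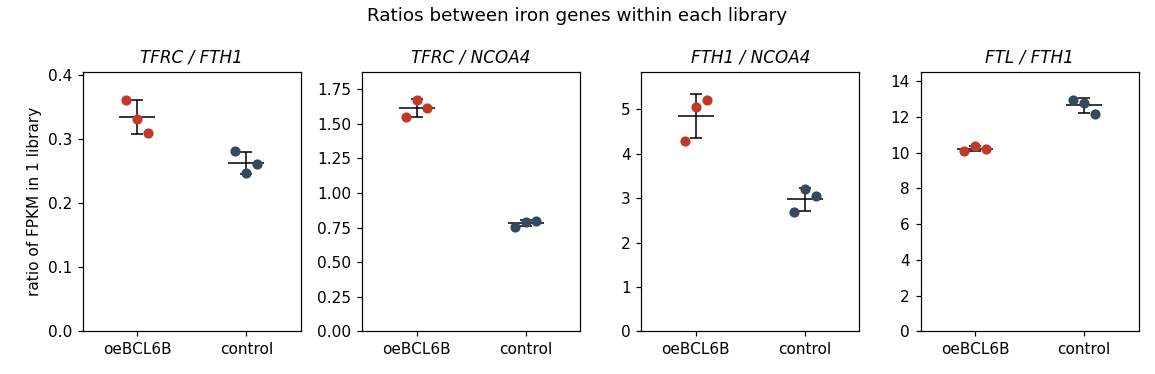
Ratios of FPKM between pairs of iron genes within each library (y axis), with 1 point per library, a line at the group mean and bars of 1 SD. TFRC to NCOA4 is higher in every oeBCL6B library (mean 1.61) than in every control library (mean 0.781). FTL to FTH1 is lower with overexpression (10.2, against 12.6 in control). The scale of each ratio is set by the gene model lengths.

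Over the 6 libraries, the log2(FPKM + 1) of HMOX1 and FTH1 followed that of TFRC with Pearson r of 0.953 and 0.913, and that of NCOA4 ran against it with r of -0.931. The other iron genes had r between -0.559 (IREB2) and 0.348 (SLC11A2). The 6 points are 2 groups of 3, so these values mostly restate the group difference. Among 4116 protein-coding genes with a mean of at least 10 FPKM, the closest to TFRC were INAFM2 (r = 0.998), SLC38A1 (0.997), RHEX (0.997), RRM2 (0.996) and PFKFB3 (0.995). SLC38A1, a glutamine transporter, was 1.74-fold higher in oeBCL6B, RRM2, a subunit of the iron-dependent ribonucleotide reductase, 1.53-fold, and PFKFB3, a glycolytic regulator, 1.71-fold. INAFM2 was 1.24-fold and RHEX, a regulator of erythroid cell expansion, 2.53-fold higher.

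The rest of the pathway was described from 8 lists of 97 genes, of which 76 could be tested. Of these, 3 rose, 8 fell and 65 did not pass, with a median log2 change of -0.03. The shares of all tested genes that rose and fell were 8.18% and 10.1%. The lists were chosen with earlier results of these data known, so their calls and adjusted p-values are also a description. In the list of the transferrin cycle and other uptake routes, 0 of 7 tested genes passed, and 7 of 14 were too low to test. TFR2, a receptor related to TFRC, was at 1.01 ± 0.140 FPKM in oeBCL6B and 0.917 ± 0.133 FPKM in control (SD, n = 3 each; limma adjusted p = 0.696). STEAP3, the endosomal ferrireductase, was at 1.77 ± 0.294 FPKM in oeBCL6B and 1.85 ± 0.163 FPKM in control (SD, n = 3 each; limma adjusted p = 0.808). HFE, a partner of the receptor, was at 0.0839 FPKM in oeBCL6B and 0.0684 FPKM in control and was not tested. In the export and hepcidin list, 0 of 2 tested genes passed, and HAMP, the gene of hepcidin, was at 0.0114 FPKM in oeBCL6B and 0.0182 FPKM in control.

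Among 9 tested genes of storage, iron chaperones and IRP turnover, 2 fell and 0 rose. HERC2, a ubiquitin ligase known to act on NCOA4, was at 10.49, 10.8 and 11.7 FPKM in oeBCL6B and 14.3, 14.1 and 14.4 FPKM in control. The fold was 0.771 (log2 change -0.35, limma adjusted p = 0.0081), and all 3 oeBCL6B libraries lay below the controls. TAX1BP1, an autophagy receptor that takes part in the delivery of ferritin, was at 31.1 ± 1.74 FPKM in oeBCL6B and 35.7 ± 0.839 FPKM in control (SD, n = 3 each; fold 0.870, limma adjusted p = 0.0437). HERC2 kept its call under all 16 alternatives, whereas TAX1BP1 lost it under 10 of 16, with adjusted p up to 0.137. FBXL5, the iron-sensing ligase that marks IRP2 for degradation, was at 16.8 ± 1.34 FPKM in oeBCL6B and 18.4 ± 0.860 FPKM in control (SD, n = 3 each; limma adjusted p = 0.230).

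In the haem list, 1 of 11 tested genes fell and 0 rose. ALAD, an early enzyme of haem synthesis, was at 9.005 ± 0.488 FPKM in oeBCL6B and 10.8 ± 0.310 FPKM in control (SD, n = 3 each; fold 0.831, limma adjusted p = 0.026). It no longer passed without any 1 of 5 libraries, that is all but oeBCL6B replicate 2, with limma adjusted p of 0.0522 to 0.0973.

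Mitochondrial iron and iron-sulphur assembly had 28 tested genes, of which 2 rose and 4 fell. The related mitochondrial iron importers went opposite ways. SLC25A37 (mitoferrin 1) was at 45.2, 46.2 and 48.0 FPKM in oeBCL6B and 41.0, 36.3 and 39.8 FPKM in control (fold 1.19, limma adjusted p = 0.0279). SLC25A28 (mitoferrin 2) was at 34.1, 34.9 and 36.1 FPKM in oeBCL6B and 43.1, 41.5 and 39.9 FPKM in control (fold 0.844, limma adjusted p = 0.0173). Their ratio within libraries was 1.33 ± 0.00368 in oeBCL6B and 0.940 ± 0.0624 in control (SD, n = 3 each), on a scale set by the gene model lengths, and the mean was 1.41 times as high in oeBCL6B. The call of SLC25A37 was lost under 8 of 16 alternatives (adjusted p up to 0.0971), and that of SLC25A28 without oeBCL6B replicate 2 (0.0622) or control replicate 1 (0.0715).

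NFS1, the cysteine desulphurase that supplies sulphur for the clusters, fell to 5.65 ± 0.119 FPKM in oeBCL6B, against 7.42 ± 0.174 FPKM in control (SD, n = 3 each; fold 0.762, limma adjusted p = 0.00678). CIAPIN1, a factor of cytosolic cluster assembly, was at 13.7 ± 0.0885 FPKM in oeBCL6B and 16.2 ± 0.412 FPKM in control (SD, n = 3 each; fold 0.846, limma adjusted p = 0.015). NFS1 kept its call under all 16 alternatives, and CIAPIN1 lost it without oeBCL6B replicate 2 (adjusted p 0.054), control replicate 1 (0.061) or control replicate 3 (0.0504). HSCB, a chaperone of cluster transfer, was 1.29-fold higher in oeBCL6B (limma adjusted p = 0.0306), and FDX2, a ferredoxin of the same pathway, had a fold of 0.533 (limma adjusted p = 0.0362). HSCB and FDX2 are named after their values were seen, and each lost its call under at least 6 of 16 alternatives.

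The other mRNAs with a known iron-responsive element gave 2 tested genes, and 0 passed. Of 9 tested transcriptional inputs to iron genes, 0 passed. MYC was at 71.7 ± 5.07 FPKM in oeBCL6B and 76.5 ± 1.17 FPKM in control (SD, n = 3 each; limma adjusted p = 0.296). NFE2L2, which encodes the activator NRF2, was at 10.91 ± 0.478 FPKM in oeBCL6B and 10.95 ± 0.461 FPKM in control (SD, n = 3 each; limma adjusted p = 0.965). BACH1, a haem-sensing repressor of HMOX1, was at 3.85 ± 0.400 FPKM in oeBCL6B and 3.80 ± 0.605 FPKM in control (SD, n = 3 each; limma adjusted p = 0.926).

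Of 8 tested NRF2 targets besides the genes above, 1 rose and 1 fell. ME1, malic enzyme 1, was at 11.99, 10.1 and 11.2 FPKM in oeBCL6B and 8.60, 7.83 and 7.62 FPKM in control (fold 1.39, limma adjusted p = 0.0119). SLC7A11, the cystine importer, was at 4.77, 4.30 and 4.09 FPKM in oeBCL6B and 6.88, 6.21 and 7.09 FPKM in control (fold 0.652, limma adjusted p = 0.00625). The groups did not overlap for either gene, and both kept their calls under all 16 alternatives. HMOX1, an NRF2 target in other settings, was higher in oeBCL6B, like ME1 and unlike SLC7A11. NRF2 activity was not tested.

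**Figure D5:**
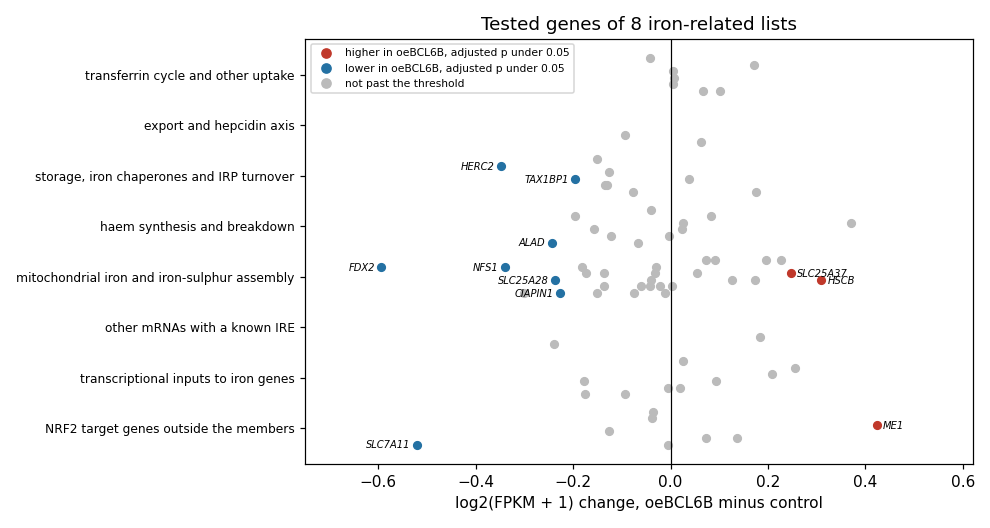
Log2(FPKM + 1) change, oeBCL6B minus control, of each tested gene in 8 iron-related lists (rows), with genes past the adjusted threshold coloured and named. The 3 that rose are SLC25A37, HSCB and ME1, and the 8 that fell are HERC2, TAX1BP1, ALAD, SLC25A28, NFS1, CIAPIN1, FDX2 and SLC7A11.

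Some markers of the line also changed, in lists likewise chosen with earlier results of these data known. Of 9 tested U937 myeloid markers, 1 rose and 4 fell, and their summed level was 1751 to 1935 FPKM in oeBCL6B and 2152 to 2303 FPKM in control, most of it MPO. LYZ (fold 0.589, limma adjusted p = 0.00301), CD33 (0.794, 0.0121), PTPRC (0.823, 0.0343) and MPO (0.824, 0.0386) fell, and ITGAX rose (1.55, 0.00885). MPO is named after its values were seen, and its call was lost when any 1 library was left out. PTPRC lost its call under 7 of 16 alternatives. Of 6 tested proliferation markers, PCNA rose (1.32, limma adjusted p = 0.0125) and CCNB1 fell (0.776, 0.00638), and the other 4 did not pass. The 6 summed to 532 to 583 FPKM in oeBCL6B and 496 to 518 FPKM in control, but without PCNA the other 5 summed to 264 to 284 FPKM in oeBCL6B and 293 to 301 FPKM in control. Without control replicate 3, PCNA missed the threshold at an adjusted p of 0.054. The part of these differences in the iron genes' values was not tested.

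Markers of other cells were low. The erythroid list summed to 0.105 to 0.149 FPKM in oeBCL6B and 0 to 0.0515 FPKM in control, with the globin genes at 0 in all 6 libraries. Fibroblast markers summed to 0.136 to 0.238 FPKM in oeBCL6B and 0.0947 to 0.188 FPKM in control, and endothelial markers to 0.0491 to 0.174 FPKM in oeBCL6B and 0.0160 to 0.0272 FPKM in control. The T cell list summed to 4.22 to 5.97 FPKM in oeBCL6B and 3.16 to 4.34 FPKM in control, nearly all of it CD3D, with CD3E and CD3G near 0. Of the T cell list 1 marker, CD3D, was tested, and it did not pass (limma adjusted p = 0.134).

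Promoter sequences were searched for short motifs in the 250 bases before the start, on both strands, in the RefSeq table (GRCh38.p14). That table held 13 windows for 8 of the 10 genes and none for FTH1 or HMOX1. ACGTG, the core letters of the hypoxia response element, occurred in TFRC at position -88 from the start and in FTL at -11, and in 18.5% of all 35116 windows. CACGTG, the E-box bound by MYC, which contains ACGTG, was in none of the 13 windows and in 6.34% of all. TGACNNNGC, the core of the antioxidant response element, and TTCCTNGAA, a motif given for the related factor BCL6, were also in none of the 13, and in 10.9% and 1.37% of all windows. A match is not a binding site, and no match says nothing of the factor.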

How the data were processed

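The authors deposited 1 table of FPKM values for 58735 genes, with gene lengths and 1 column per library, per the file headers. The submitters' processing notes name cutadapt 1.9 and the build GRCh38. The aligner, counter, strand setting and handling of reads matching several places were not given in the sources used here. Strand-marked (dUTP) libraries were made from poly(A) RNA, per the labels' protocols. Deposited coordinates and lengths equalled those of GENCODE 29 for 58724 genes. FPKM times length gave whole reads for 100% of 139702 values above 0, within 0.01, which gave reads per gene and depth.

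Values were tested on log2(FPKM + 1) by limma (version 3.58.1, under R 4.3.3) with its trend option, two-sided, over 14662 genes reaching 0.5 FPKM in 3 libraries. Copies were sought with BLAST+ 2.17.0. The 10 genes, the 8 lists and the marker lists were chosen with earlier results of these data known. The text names the 10 genes, up to 4 genes per list with the smallest adjusted p among those that passed, HFE, TFR2, STEAP3, FBXL5, HAMP, MYC, NFE2L2 and BACH1 in any case, and the 5 genes most like TFRC. Some marker results are not reported here. Any other gene is said to be chosen after its values were seen. Alternatives were pseudocounts of 0.1 and 0.5, no filter, a mean of at least 1 FPKM, median-ratio scaling, quantile normalization, TPM, no trend, a replicate block, limma voom on the reads, and leaving out each library. Levels per mapped-transcript length were added after the data were seen. Leave-one-out fits kept the same tested genes. The procedure was tested on simulated data. Separate cultures are not stated, so a p-value reflects library spread only, which may be technical.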

Additional observations from a re-analysis of the deposited data

How the results depend on the processing

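TFRC and NCOA4 passed in their direction under all 16 alternatives and FTH1 under 13. The alternatives reuse the libraries on which the 10 genes were chosen. They describe dependence on processing and give no further support. The log2 change of TFRC stayed between 0.65 and 0.70, with 0.65 to 0.70 when 1 library was left out. That of HMOX1 was 1.57 after rescaling to TPM, between its values with pseudocounts of 0.5 (1.249) and 0.1 (2.10). The rescaling changed the values to which the pseudocount of 1 was added, and the part of this in the 1.57 was not tested separately. Of the 10 iron genes, 2 or 3 rose and 1 fell in every alternative. Over all genes, the number that rose was 716 with no filter and 604 to 1014 when 1 library was left out, and the number that fell was 872 with no filter and 618 to 1258 when 1 library was left out, fewest without control replicate 3. Of the genes in the 8 lists, 3 rose, against 1 with no filter, 5 with median-ratio scaling, 7 with quantile normalization, 5 with voom and 1 to 4 when 1 library was left out. The number of listed genes that fell was 8, against 3 to 7 when 1 library was left out. Among the 10 iron genes and the listed genes the text names as changed, no alternative reversed the direction of a call, and for all other genes only counts were compared.

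The labels do not say whether the replicate numbers mark pairs. Deviations from the group means correlated at 0.0511, 0.11 and -0.00189 between libraries of the same number. Between libraries of different numbers they correlated at -0.0909 to 0.0386. These few small values cannot decide whether the libraries were paired. With a replicate block, 1040 genes rose and 1288 fell, the calls of the 10 iron genes were 3 and 1, those of the listed genes 4 and 7, and the log2 change of TFRC was 0.67.

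Few reads limit HMOX1, SLC11A1 and SLC40A1, and 3 libraries per group limit small changes. Leaving out oeBCL6B replicate 2, control replicate 1 or control replicate 3 removed the most calls.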
